A study of Mus musculus with 2 samples.

Results

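Serine proteases and the inhibitors that act on them were followed in RNA-seq data from sorted lung epithelial cells of adult mice. Members were taken by gene symbol alone: serpins (Serpin), transmembrane serine proteases (Tmprss), numbered Prss and kallikrein (Klk) genes, Kunitz inhibitors (Spint), WAP-domain genes (Wfdc, Slpi), matriptase (St14) and the plasminogen activators with their receptor (Plat, Plau, Plaur). This gave 167 of the 22072 gene symbols in the tables, and 166 of them are described and counted as members here. There were 2 libraries, each made from RNA pooled from 4 mice after 16 days of doxycycline food at 625 mg/kg. Both pools were sorted as lineage-negative, CD326-positive cells with intermediate CD24, a gate meant to enrich secretory airway cells without cilia. Control mice carried tetOCre with both floxed copies of Mst1 and of Mst2. The second genotype had, beside these alleles, Scgb1a1-rtTA, a doxycycline-dependent activator driven by the promoter of a club cell secretory protein. Cre is thus meant to act where that promoter is active.

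The genotypes also differed in the activator and in active Cre, and these cannot be told apart from the intended deletion. With 1 pooled library per genotype there is no replicate error, no test was possible, and every difference below compares these libraries rather than the genotypes. The deleted kinases Mst1 and Mst2, listed under the symbols Stk4 and Stk3, had 5.38 and 7.28 FPKM (fragments per kilobase of transcript, scaled to the mapped fragments of a library) in the control pool and 4.71 and 7.09 in the CKO pool. The labels do not say which exons were removed, so these values cannot check the genotype. The pool with the activator is called the CKO pool here, after its label for conditional knockout. Coverage summed over listed transcripts came to 413 Mb of read bases in the control pool and 393 Mb in the CKO pool, and approximate reads below take 47.1 bases as 1 read.

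The check of the sort gave a mixed picture. Among 9 club cell markers, 8 were measured, of which 6 were lower in the CKO pool and 2 higher. Cbr2 had 5224 FPKM in the control pool against 3803 in the CKO pool, while Cyp2f2 went the other way, from 4694 to 5305. Scgb1a1 was listed at 0 in both with the status HIDATA, so its level was not estimated. The 9 alveolar type 2 cell markers summed to FPKM of 11300 and 14139, so the pools also held alveolar transcripts. The club list summed to 11907 and 10136, but this counts Scgb1a1 as 0 and is only a lower bound. The 2 sums therefore do not give the share of either cell type. Alveolar type 1 markers summed to 114 and 297, with 7 of 9 at least 1.5-fold higher in the CKO pool. In a bulk pool, fewer cells of a type and less RNA per cell cannot be told apart.

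Trypsin-like serine proteases cut proteins with a catalytic serine, and most are made as inactive precursors. On airway epithelium, membrane-anchored enzymes such as prostasin and matriptase process ion channels, receptors and growth factor precursors, while Kunitz inhibitors on the same cells restrain them. Serpins trap a protease by letting it cut an exposed loop, which locks enzyme and inhibitor together, although some serpins have lost this activity. WAP-domain proteins are small secreted proteins held together by disulfide bonds, and some of them inhibit the elastase released by neutrophils.

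Most of the 166 members were low or not detected in these cells. Only 25 reached FPKM of 1 in either pool, 15.1% of members against 45.1% of all gene symbols. Another 68 were listed at exactly 0 in both libraries, and the 141 members under FPKM of 1 together made up 1.98% of the members' summed FPKM in the control pool and 1.80% in the CKO pool. Genes of inhibitor families outweighed those of protease families in summed FPKM. The 82 genes of inhibitor families summed to FPKM of 447 and 386, of which 16 reached FPKM of 1. Wfdc2 alone, at 298 and 223, gave most of this sum. The families were taken by symbol and include serpins without inhibitory activity, such as Serpinf1 and Serpinh1. The 83 genes of protease families summed to 56.8 and 62.7, of which 8 did. Plaur, a receptor, was in neither set. A single gene, Wfdc2, supplied 58.7% of the members' summed FPKM in the control pool and 49.3% in the CKO pool.

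**Figure D1:**
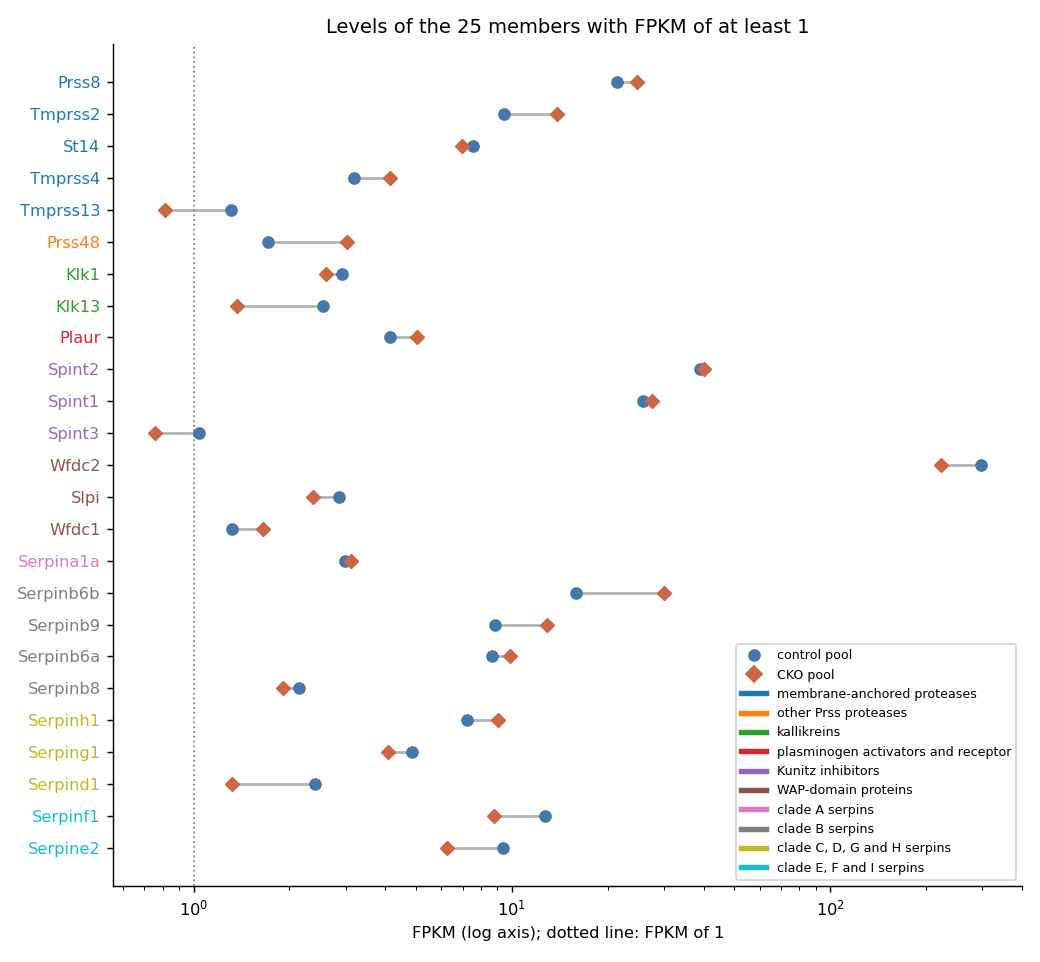
FPKM of the 25 members that reached 1 in either pool, on a log axis, with circles for the control pool, diamonds for the CKO pool and symbol colours for the role. Wfdc2, at 298 and 223, lies far to the right of every other member, and Spint2, Spint1, Prss8 and Serpinb6b are the next highest.

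Between the libraries, the measured members went both ways. Of the 25, 13 were above 0 and 12 below on the log2 scale of FPKM + 1. Of all 9945 genes with FPKM of at least 1, 6286 were above 0 and 3659 below. The median log2 difference of the members was 0.03, against 0.07 over all these genes. On the same scale 1 member, Serpinb6b, was at least 1.5-fold higher in the CKO pool, where 3.02% of all genes were. In the other direction 0 of the 25 were at least 1.5-fold lower, where 2.59% of all genes were. The share of these members past the threshold, 4%, is near the 5.61% of all genes in either direction. Klk13 (1.499-fold lower), Prss48 (1.488-fold higher) and Serpind1 (1.472-fold lower) lay just inside the threshold on that scale. With the values scaled by the summed coverage of each library, or with all differences centred on the median gene, the split became 1 higher and 3 lower, as Klk13, Serpind1 and Serpine2 passed it. Of all genes, 3.14% were at least 1.5-fold lower under the first of these settings and 3.27% under the second, against 3 of the 25 members. At least 1.5-fold higher were 2.05% and 2.09% of all genes, against 1 of the 25 members.

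**Figure D2:**
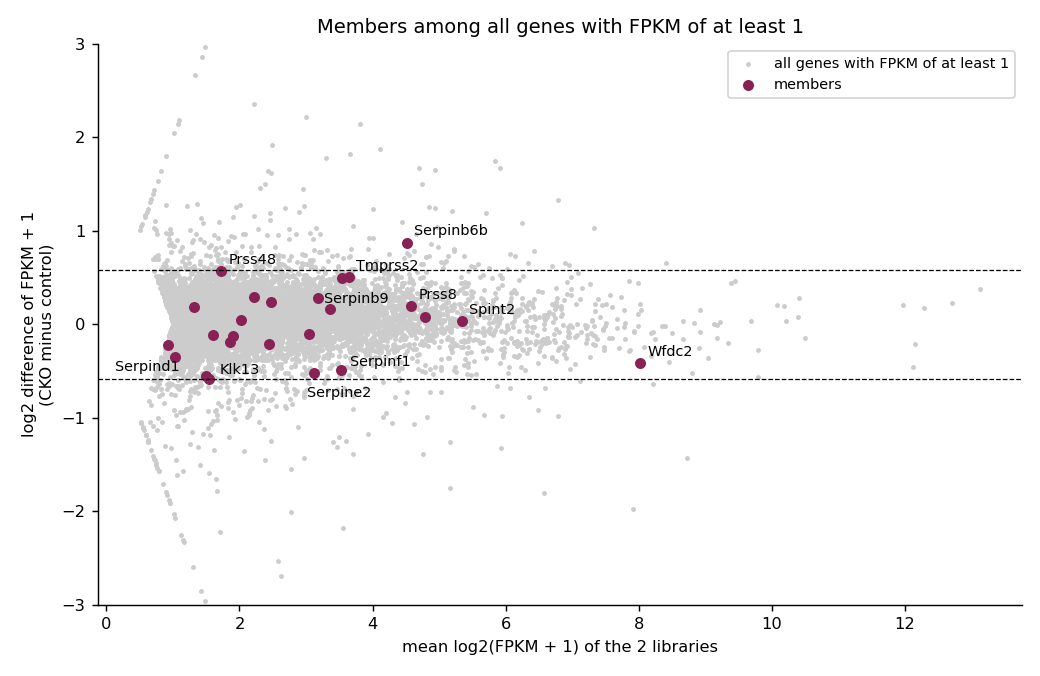
Log2 difference of FPKM + 1 between the libraries against the mean log2(FPKM + 1), for genes with FPKM of at least 1 (grey) and the 25 members (dark), with dashed lines at 1.5-fold. Serpinb6b lies above the upper line, and Klk13 and Serpind1 lie close to the lower one. Of the grey points, 7 lie outside the axis limit of 3.

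Ratios of FPKM without the pseudocount show the low members more fully, and are given below with a 95% interval that covers counting error only. They ranged from 0.537 for Klk13 to 1.89 for Serpinb6b. Members past FPKM of 5 with the highest ratios were Serpinb6b, Tmprss2 and Serpinb9.

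**Figure D3:**
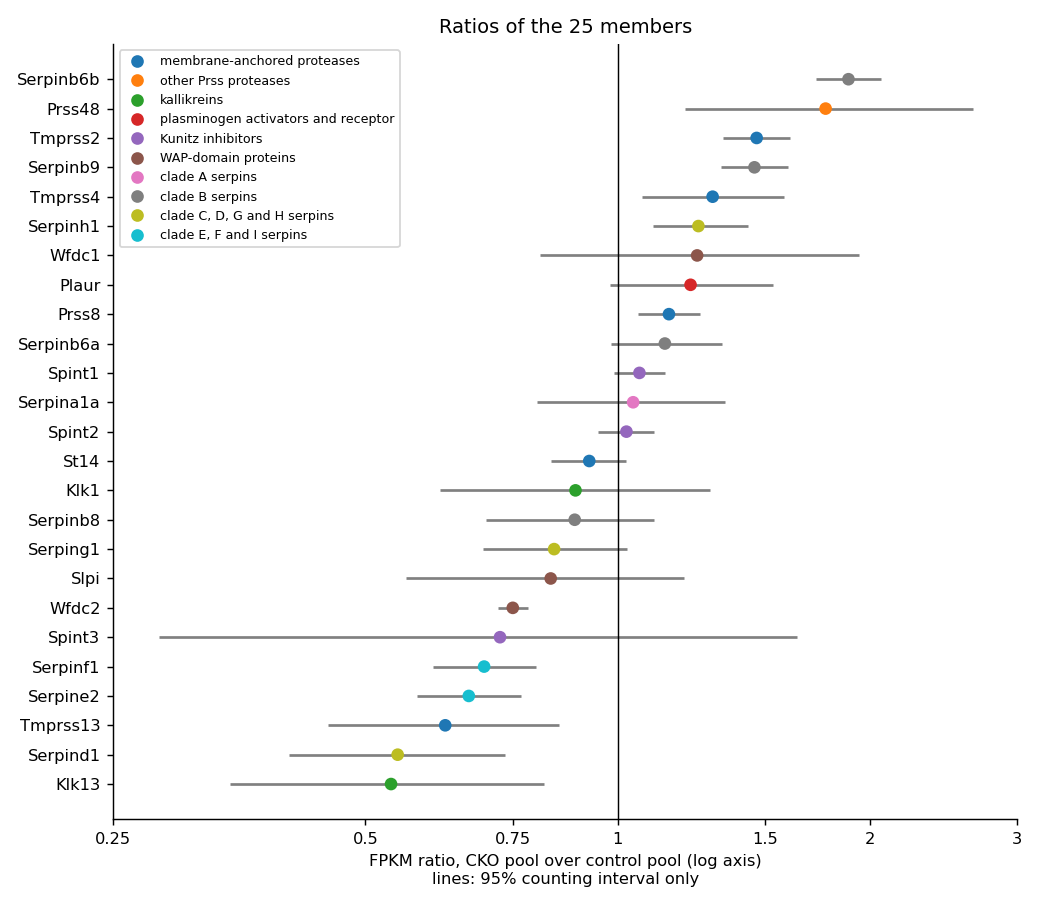
FPKM ratio of the 25 members, CKO pool over control, on a log axis, with lines for the 95% counting interval and colours for the role. Serpinb6b, Prss48, Tmprss2 and Serpinb9 lie highest, Klk13, Serpind1 and Tmprss13 lie lowest, and the wide line of Spint3 rests on about 15.6 and 10.1 reads.

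The upstream sequences of these members and of Wfdc2, the most abundant one, are shown because the deleted kinases control the coactivators Yap and Taz, which bind DNA through TEAD factors. Of the 25 members, 18 matched RefSeq promoter entries (build GRCm38.p6). Each sequence is the 250 bases before the annotated start, 5′ to 3′ on the gene's strand, with any match to the TEAD core motif GGAATG, on either strand, in capitals.
Serpinb6b, chr13:32965011-32965260, plus strand: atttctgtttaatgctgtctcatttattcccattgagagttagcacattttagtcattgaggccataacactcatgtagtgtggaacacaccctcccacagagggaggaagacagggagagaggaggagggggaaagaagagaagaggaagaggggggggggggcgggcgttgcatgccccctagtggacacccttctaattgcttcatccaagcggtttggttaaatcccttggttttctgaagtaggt
Serpinb9, chr13:33004291-33004540, plus strand: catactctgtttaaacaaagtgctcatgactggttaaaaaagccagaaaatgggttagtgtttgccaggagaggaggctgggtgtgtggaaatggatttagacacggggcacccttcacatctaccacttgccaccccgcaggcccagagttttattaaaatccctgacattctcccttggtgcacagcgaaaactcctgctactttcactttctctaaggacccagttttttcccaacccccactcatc
Tmprss2, chr16:97611196-97611445, minus strand: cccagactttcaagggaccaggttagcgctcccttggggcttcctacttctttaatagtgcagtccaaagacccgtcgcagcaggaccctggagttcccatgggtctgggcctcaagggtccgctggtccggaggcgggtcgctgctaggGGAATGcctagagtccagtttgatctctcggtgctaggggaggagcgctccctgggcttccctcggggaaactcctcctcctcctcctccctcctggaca
Wfdc2, chr2:164562465-164562714, plus strand: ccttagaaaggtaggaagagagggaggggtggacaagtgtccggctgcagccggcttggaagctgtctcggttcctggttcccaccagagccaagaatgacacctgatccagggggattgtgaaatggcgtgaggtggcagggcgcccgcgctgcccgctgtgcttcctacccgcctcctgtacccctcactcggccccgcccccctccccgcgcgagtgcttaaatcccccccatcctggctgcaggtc
The Tmprss2 sequence holds 1 match, which begins 100 bases before the start, and the other 3 sequences hold none. Serpinb6a, at 1 of its 2 annotated starts, was the other member with a match, 2 of 18 members or 11.1%, against 14.4% of 27025 genes with promoter entries of this length. G+C content was 49.6% for Serpinb6b, 47.6% for Serpinb9, 61.6% for Tmprss2 and 64.8% for Wfdc2.

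Among the protease families described here, the membrane-anchored one had the highest summed FPKM. Of 29 such genes, 5 reached FPKM of 1, and their summed FPKM was 43.4 in the control pool and 51.0 in the CKO pool. Prss8 (chr7:135069231-135073627, mm9), which encodes prostasin, a lipid-anchored protease that activates the epithelial sodium channel, had FPKM of 21.4 and 24.7. Its ratio was 1.15 (1.06 to 1.25), so the most abundant protease gene among the members differed little. St14, which encodes matriptase, a transmembrane protease of many epithelia, had FPKM of 7.53 and 6.96, at a ratio of 0.925 (0.833 to 1.02). The interval includes 1, and the level of Prss8 over that of St14 was 2.85 and 3.54.

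Tmprss2 and Tmprss4, whose products can activate the surface glycoproteins of respiratory viruses, both had a higher FPKM in the CKO pool. Tmprss2 had 9.47 FPKM in the control pool against 13.9 in the CKO pool, a ratio of 1.47 (1.34 to 1.61). Tmprss4 had FPKM of 3.20 and 4.15, at a ratio of 1.30 (1.07 to 1.58). With an assumed read of 100 bases its interval was 0.975 to 1.737 and included 1. Windows of 50 bases from Tmprss4 transcripts occurred in transcripts of another gene in 11.9% of cases, so its level could depend on how such reads were assigned. Tmprss13 went the other way at a low level, with FPKM of 1.31 and 0.813 (0.623, 0.451 to 0.852). The remaining 24 membrane-anchored genes, among them the airway trypsin-like protease gene Tmprss11d, listed at 0 in both libraries, stayed under FPKM of 1.

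The other protease genes among the members were low. Prss48 was the only measured gene among the other 25 Prss genes, with FPKM of 1.72 and 3.04 and a ratio of 1.77 (1.20 to 2.66), resting on about 44.1 and 69.9 reads. With an assumed read of 100 bases the interval widens to 0.987 to 3.195 and includes 1. Of 27 kallikrein genes, Klk1 and Klk13 reached FPKM of 1. Klk1, which encodes tissue kallikrein, the enzyme that releases kinins, had FPKM of 2.92 and 2.60 (0.891, 0.614 to 1.29), and 24.0% of its 50-base windows occur in other kallikrein genes. Klk13, which encodes a kallikrein-related peptidase, had 2.55 and 1.37 (0.537, 0.345 to 0.817).

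The genes of plasminogen, its activators and the plasmin inhibitor stayed under FPKM of 1, unlike a receptor gene and an inhibitor gene of the activators. Plaur, which encodes the urokinase receptor, had FPKM of 4.13 and 5.05, at a ratio of 1.22 (0.981 to 1.53). Its ligand Plau, the urokinase gene, had FPKM of 0.373 and 0.128, and the tissue plasminogen activator gene Plat had 0.205 and 0.0568. Both activators were lower in the CKO pool, on about 23.6 and 7.24 reads for Plau and 14.0 and 3.48 for Plat. Plg, the gene of plasminogen itself, was listed at 0 in both libraries, and Serpinf2, which encodes the plasmin inhibitor, stayed under FPKM of 0.1 in both.

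Serpine2, which encodes protease nexin 1, an inhibitor of thrombin and of the activators, had FPKM of 9.40 and 6.24 (0.664, 0.576 to 0.766). Serpinf1, whose product PEDF is a secreted serpin without inhibitory activity, had 12.7 and 8.78 (0.693, 0.602 to 0.8002). Both measured genes of the 6 described in clades E, F and I were thus lower in the CKO pool, with a summed FPKM of 22.7 and 15.6 over the 6. The other 4, including Serpini1 for neuroserpin, stayed under FPKM of 1.

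Most markers of stromal and blood cells were lower in the same library. Mesenchymal markers summed to FPKM of 19.2 in the control pool and 7.80 in the CKO pool. All 4 measured ones of 7 were lower, 2 of them at least 1.5-fold. Dcn, at 11.9 and 3.79, gave the greater part of this sum. Col1a2, at 1.32 and 1.20, and Col1a1, under FPKM of 1 at 0.824 and 0.828, differed little. Leukocyte markers, 11 of them in the tables, summed to 19.4 and 10.1, and of 7 measured 5 were below 0, 4 of them at least 1.5-fold. Cd79a, at 0.527 and 1.06, and Csf1r, at 0.984 and 1.80, went the other way. Endothelial markers summed to 11.6 and 6.76, with 1 of 6 measured. That marker, Kdr, gave most of the sum, at 9.05 and 5.11. Cdh5, under FPKM of 1 at 0.425 and 0.475, went the other way. No mesenchymal or endothelial marker was at 0, and of the leukocyte markers only Emr1 was, in the CKO pool. The part of these cells in the levels of Serpine2 and Serpinf1 was not tested.

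Kunitz inhibitors were abundant and close to equal between the libraries. Spint1 (chr2:119063096-119075249) and Spint2 (chr7:30041349-30066996, both mm9) encode HAI-1 and HAI-2, membrane-bound inhibitors of matriptase and related enzymes. Spint1 had FPKM of 25.9 and 27.5, at a ratio of 1.06 (0.989 to 1.14). Spint2 had 39.1 and 40.1, a ratio of 1.02 (0.946 to 1.10). Both intervals include 1. Under other scalings the log2 difference of Spint1 reached -0.001 and that of Spint2 -0.05, so neither direction is fixed. The summed level of both inhibitors over that of Prss8 and St14 was 2.24 in the control pool and 2.13 in the CKO pool. Spint3, from the same gene family, had 1.04 and 0.753, and Spint4 was listed at 0 in both.

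Several genes of channels and receptors that serine proteases act on were higher in the CKO pool. Of 7 genes listed, 5 were measured, all above 0 on the log2 scale of FPKM + 1, where 6286 of all 9945 genes were. In the CKO pool 3 were at least 1.5-fold higher, where 3.02% of all genes were. The sodium channel subunit genes Scnn1a, Scnn1b and Scnn1g had FPKM of 50.7, 34.5 and 21.5 in the control pool and 86.3, 51.6 and 36.3 in the CKO pool. F2rl1, which encodes the protease-activated receptor PAR2, had 8.02 and 12.8, a ratio of 1.60 (1.44 to 1.78). The related thrombin receptor gene F2r had 6.997 and 7.37. Markers of other cell types were higher in the same library. Besides the alveolar type 1 list given above, all 9 alveolar type 2 markers were above 0 on that scale, 1 of them at least 1.5-fold. Ciliated cell markers, which the gate is meant to deplete, summed to FPKM of 30.8 in the control pool and 51.2 in the CKO pool, with all 6 measured ones of 8 above 0, 3 of them at least 1.5-fold, and none at 0. The part of these cells in the levels of the channel and receptor genes was not tested. Of 6 growth factor activation genes, 2 were measured, and neither was past 1.5-fold on the scale of FPKM + 1. Met, the receptor gene for hepatocyte growth factor, had 19.7 and 18.3, and Hpn, which encodes the protease hepsin, had 2.45 and 1.73. The gene symbol Mst1 in these tables is that of macrophage-stimulating protein, not of the deleted kinase, and stood at 0.158 and 0.0494.

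**Figure D4:**
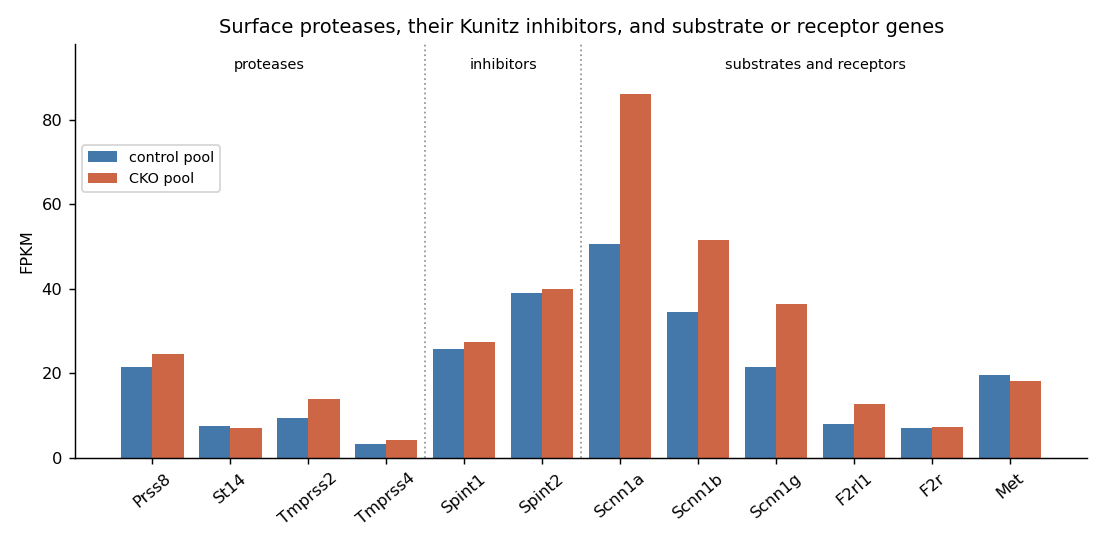
FPKM of 4 surface protease genes, 2 Kunitz inhibitor genes and 6 channel and receptor genes in the control pool (blue) and the CKO pool (orange), 1 library per bar and so without error bars. Spint1 and Spint2 are nearly level, and the 3 Scnn1 genes, Tmprss2 and F2rl1 are higher in the CKO pool.

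WAP-domain genes were dominated by Wfdc2 (chr2:164388216-164394006, mm9), which encodes HE4, a secreted protein of airway epithelium. Its level was 298 FPKM in the control pool against 223 in the CKO pool, where it was thus 1.33-fold lower (1.28 to 1.39), and its rank among all genes went from 42 to 54. The difference was under 1.5-fold under every alternative run. Slpi, the gene of the secretory leukocyte protease inhibitor, which inhibits neutrophil elastase, had only 2.85 and 2.38 (0.832, 0.559 to 1.20), so Wfdc2 stood 104-fold and 94.1-fold above it. Wfdc1 had 1.32 and 1.65 (1.24, 0.807 to 1.94). The other 13 of 16 WAP-domain genes were under FPKM of 1, 9 of them at 0 in both libraries. The club cell list was lower in the same library in 6 of 8 measured markers, 3 of them at least 1.5-fold, and so were all 4 measured markers of mucous cells. The summed mucous list had FPKM of 31.4 and 10.1, with Tff1 at 0 in both libraries and Tff2 in the CKO pool. The part of either cell type in the level of Wfdc2 was not tested.

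Clade B serpins, which stay mostly inside the cell and guard it against proteases released there, held the member with the highest ratio. Serpinb6b (chr13:33057382-33070906, mm9) had 15.9 FPKM in the control pool against 30.02 in the CKO pool, 1.89-fold higher (1.73 to 2.06). It stayed at least 1.5-fold higher under each of the 9 alternatives, at log2 differences of 0.79 to 0.91. With an assumed read of 100 bases its interval was 1.66 to 2.15. Transcripts of other genes hold 2.92% of its 50-base windows, and those of Serpinb6c hold most of these.

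Serpinb9, whose product inhibits granzyme B, had FPKM of 8.84 and 12.9, at a ratio of 1.46 (1.33 to 1.60). Serpinb6a, a close relative of Serpinb6b, had 8.69 and 9.89 (1.14, 0.982 to 1.33), and Serpinb8 had 2.14 and 1.91 (0.889, 0.697 to 1.11). Over the 27 clade B genes the summed FPKM was 36.4 and 55.3, of which Serpinb6b gave the greater part of the difference. Serpinb6a overlaps the Nqo2 gene, and 25.1% of its 50-base windows occur in other genes, so reads could be shared between them. Of its 3 coding transcripts, NM_009254 had FPKM of 6.97 and 7.99, NM_001164117 had 0.286 and 0.0492, and NM_001164118 went from near 0 to 0.632. A noncoding transcript had 1.42 and 1.22.

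The clade B genes of squamous and basal epithelium were almost absent. Serpinb5, the maspin gene, had 0.214 and 0.0499 on about 14.8 and 3.10 reads, and Serpinb2, which encodes plasminogen activator inhibitor 2, had 0.0884 in the control pool and 0 in the CKO pool. Serpinb3a to Serpinb3d, Serpinb7 and Serpinb13 were at 0 in both libraries. The basal and squamous markers summed to FPKM of 25.5 and 10.7, with none at 0, 3 of 6 measured at least 1.5-fold lower and 1 higher. Alveolar type 1, alveolar type 2 and ciliated cell markers, given above, were higher as summed lists in the library in which Serpinb6b, Serpinb9 and Tmprss2 were higher. Their part in these differences was not tested.

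The circulating and secreted serpins were low. Serpina1a, an alpha-1 antitrypsin gene, the main lung shield against neutrophil elastase, had FPKM of 2.998 and 3.13, at a ratio of 1.04 (0.802 to 1.35). It was the only measured gene of 25 in clade A. Of its 50-base windows, 51.4% occur in other members, mostly Serpina1c, so the near 0 values of Serpina1b to Serpina1e and the level of Serpina1a depend on how reads were assigned. Serpina3n, an acute-phase gene, had 0.629 and 0.515.

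The serpins of clades C, D, G and H had a summed FPKM of 14.6 and 14.5, with members in both directions. Serpinh1, which encodes HSP47, a collagen chaperone of the endoplasmic reticulum without inhibitory activity, had 7.23 and 9.03 (1.25, 1.10 to 1.43). This rests on the sum of 3 transcripts. The most abundant of them, NM_001111044, was lower at 6.35 and 5.32, while NM_001111043 went from near 0 to 2.27, so with the highest transcript alone the log2 difference turned to -0.22. Serping1, the C1 inhibitor gene of the complement and kinin systems, had 4.85 and 4.08 (0.840, 0.690 to 1.03). Serpind1, which encodes heparin cofactor II, a thrombin inhibitor, had 2.41 and 1.32 (0.546, 0.405 to 0.733). It lies wholly inside the span of Pi4ka, which had 6.37 and 6.33, and no shared 50-base window was found between their transcripts. Serpinc1, the antithrombin gene, stayed under FPKM of 1.

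The families sit in gene clusters, and few genes of each cluster were on. The 5 runs of members with the most genes, with gaps of at most 1 Mb, held 95 of the 166 members, of which 10 were measured. Of the 71 members elsewhere, 15 were. On chromosome 7, Klk13 and Klk1 stood near opposite ends of 27 kallikrein genes, and no gene between them reached FPKM of 1. On chromosome 2, Slpi, Wfdc2 and Spint3 were consecutive members in a run of 17, flanked by genes at 0.243 or less. On chromosome 13, Serpinb6b and Serpinb9 were neighbours among 15 genes spread over 1.16 Mb, and Serpinb6a lay at the far end. The 24 clade A genes of chromosome 12 had Serpina1a as the only measured one, and the 12 clade B genes of chromosome 1 had Serpinb8.

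**Figure D5:**
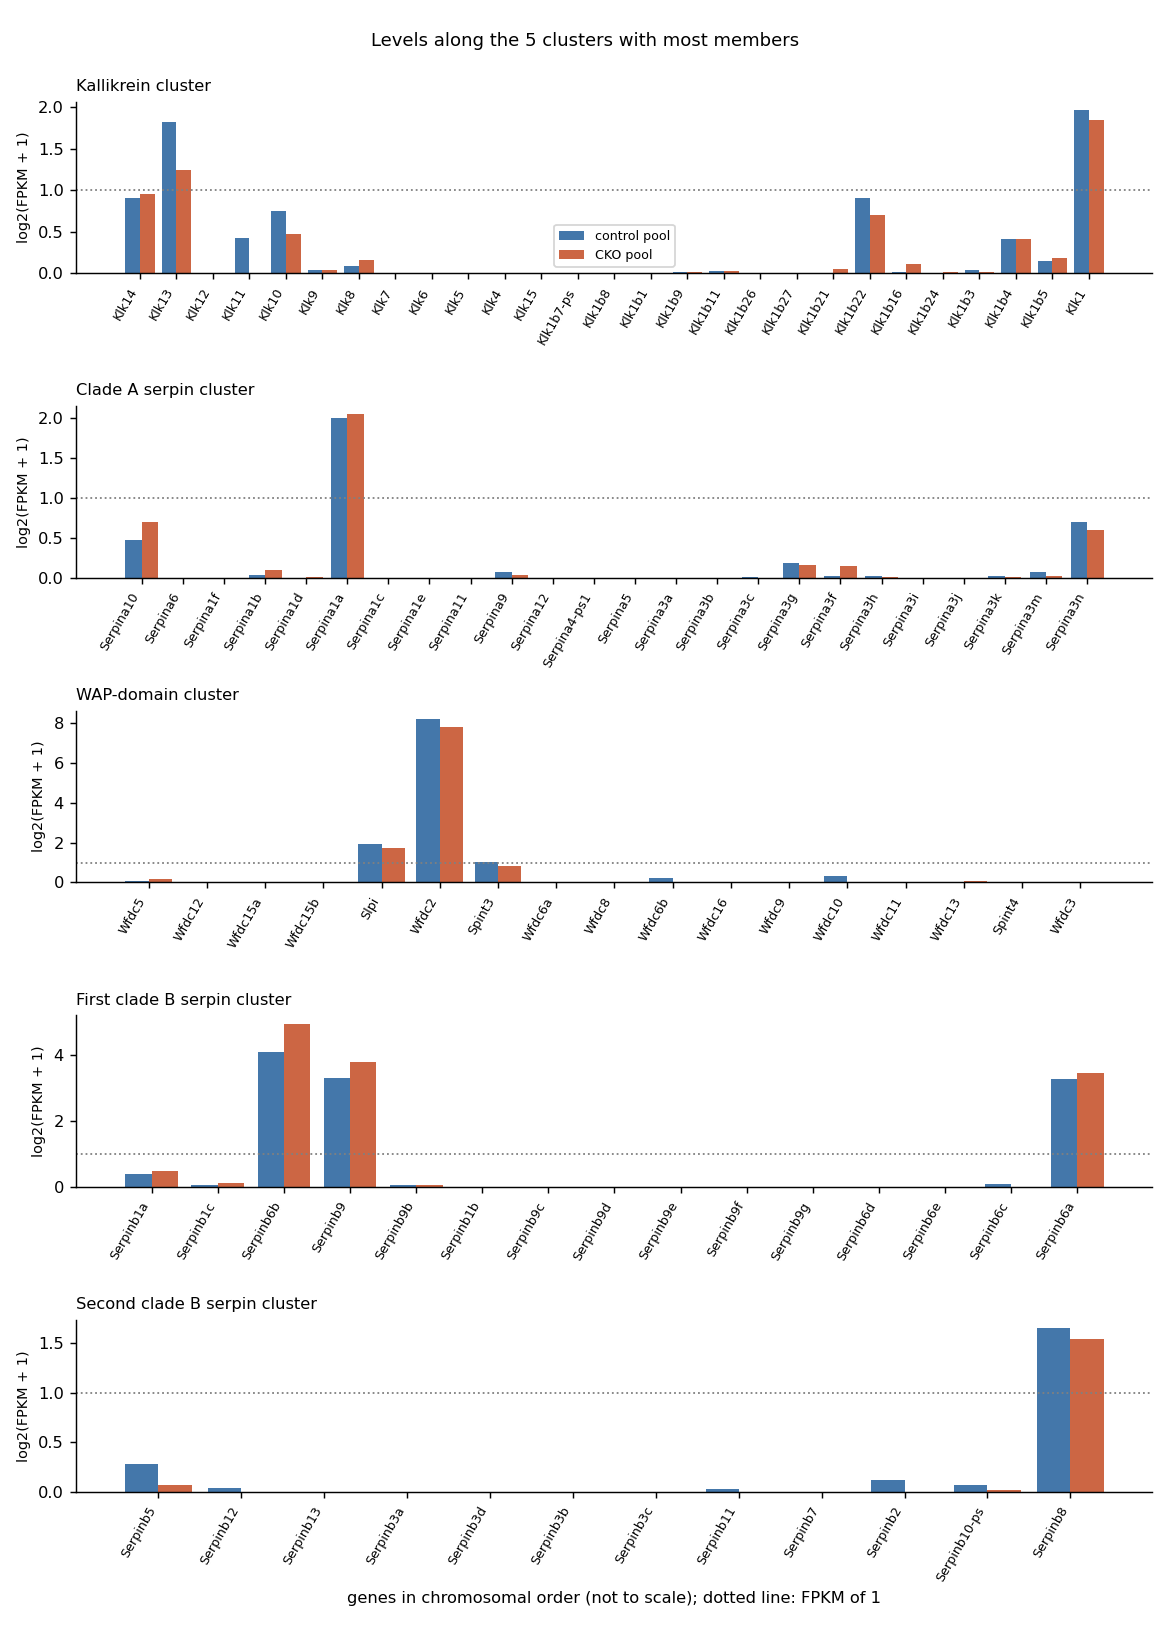
Log2(FPKM + 1) along the 5 runs with the most members, in chromosomal order and not to scale, with blue bars for the control pool, orange bars for the CKO pool and a dotted line at FPKM of 1. Each run has 1 to 3 genes above the line, and in the chromosome 13 run, the first clade B panel, Serpinb6b and Serpinb9 stand side by side with higher orange bars.

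Proteases of blood cells, which airway inhibitors such as Slpi and the alpha-1 antitrypsins meet, were at the edge of detection. The neutrophil genes Elane and Ctsg were listed at 0 in both libraries, and Prtn3 had 0 and 0.0475. None of 9 neutrophil or 8 mast cell and basophil markers reached FPKM of 1, with sums of 2.26 and 1.35 and of 0.244 and 0.420. Of the mast cell tryptases, Tpsb2 was at 0 in both, and Tpsab1 in the control pool. Among 12 other protease inhibitors outside these families, 3 were measured and none passed 1.5-fold on the scale of FPKM + 1. Spink5, which encodes a Kazal-type inhibitor, had 4.10 and 2.58, an FPKM ratio of 0.629 (0.545 to 0.727). Itih4 had 12.8 and 13.9, and Pebp1 23.4 and 21.9. Of 17 plasminogen, fibrin and coagulation partners, 5 were measured and none passed 1.5-fold on that scale. Anxa2, whose product binds plasminogen at the cell surface, had 30.7 and 39.8. Lrp1, the gene of a receptor that clears protease and serpin complexes, had 1.51 and 0.750, and its FPKM ratio without the pseudocount was 0.498 (0.430 to 0.576). Of 9 other trypsin-like protease genes, only Htra2 was measured, at 2.02 and 1.91.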

How the data were processed

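The authors ran TopHat and Cufflinks on mm9, per the submitters' processing notes. Tool versions and strandedness were not given in the sources used here. Each of 28107 transcript rows per library holds, per the file headers, the FPKM that the authors deposited and the authors' coverage, a signal of mean read depth. FPKM was summed per symbol; genes with FPKM of at least 1 in a library entered, and differences are on the log2(FPKM + 1) scale (pseudocount 1), which understates low genes. Reads were approximated as coverage times length over 47.1 bases, the median of single-transcript values between 25 and 75 bases, an assumption. Exact Clopper-Pearson 95% intervals from rounded reads, scaled by a depth ratio of 0.895, cover counting error only, and amplified reads are not independent molecules. Starts were raised by 1. Intervals and fold counts were checked on simulated counts drawn from the same counting model. That check covers the computation only, as it takes the assumed read size as true and holds no amplified reads. Shared 50-base windows came from GENCODE M21 transcripts, both strands. Of the symbols the rule matched, 1 is not reported here and is left out of every count over members. Every described member with FPKM of at least 1 is named; members past 1.5-fold or FPKM of 20 are given with position. Members and lists were chosen with earlier results of these data known. Python 3.11.15, scipy 1.17.1 and statsmodels 0.14.6 were used.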

Additional observations from a re-analysis of the deposited data

How the results depend on the processing

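Among the 25 measured members, 21 kept the sign of their difference under each of 9 alternatives in which they could be computed, and 4 did not (Serpina1a, Serpinh1, Spint1 and Spint2). Serpinb6b, the only member past 1.5-fold as reported, did not reverse. The count at least 1.5-fold higher was 1 as reported and 2, with Prss48, under a pseudocount of 0.1, conversion to TPM, or removal of the trend with transcript length. The share of all genes at least 1.5-fold higher was 3.02% as reported and 6.17%, 4.86% and 2.45% under these settings in turn. The count at least 1.5-fold lower was 0 as reported, 3 under a pseudocount of 0.1, 4 under TPM, 3 with differences centred on the median gene, 3 when scaled by coverage times length, and 1 (Serpind1) with the length trend removed. The share of all genes at least 1.5-fold lower was 2.59% as reported and 4.79%, 5.21%, 3.27%, 3.14% and 2.96% under these settings in turn. A smaller pseudocount and TPM, whose values are larger relative to the pseudocount, raise the share of all genes past 1.5-fold too, to 10.96% and 10.07%. The highest transcript per symbol, no filter, a filter at FPKM of 5 and status OK alone left the counts at 1 higher and 0 lower. Under these in turn, 3.70%, 1.86%, 3.79% and 2.90% of all genes were higher, and 2.85%, 1.70%, 2.45% and 2.52% lower. The median of the members ranged from -0.10 to 0.17. No paired analysis was possible because each genotype is 1 library. Members under about 3 reads cannot be told from absent at this depth, and no result has a replicate check.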
